A study of Mus musculus with 8 samples.

Results

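Genes for the proteins of the cytosolic ribosome were examined for promoter sites of the transcription factors E2f3 and Myc in mouse intestine. The members were the protein-coding genes of the GENCODE M1 annotation whose names start with Rpl, Rps or Rplp and a number, without the S6 kinase genes, which share the Rps prefix. This rule gave 138 genes of 22232. Of these, 76 encode standard ribosomal proteins, with 42 of the large subunit, 31 of the small subunit and 3 of the acidic stalk. The other members run against the label to different degrees. A further 54 carry the suffix -ps, which is used for pseudogenes although the annotation lists them as protein-coding, 7 are paralogs such as Rps27l and Rpl36al, and Rps19bp1 encodes a protein that binds Rps19. The standard genes are therefore also given alone.

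Binding was mapped by ChIP-exo-seq, in which chromatin is precipitated with an antibody and an exonuclease trims the DNA up to the crosslinked protein. The groups were intestinal crypt cells and villus cells of mice in which Rb had been deleted by Ah-cre, an inducible Cre active in the intestine, and the same cell types of wild-type control mice, all on a mixed background of C57BL/6, 129 and FVB/N. Each group had 1 library with an antibody to E2f3 and 1 with an antibody to Myc, 8 libraries in all. Libraries of input DNA or of a control antibody were not analysed here. Neither the ages of the mice, nor how many gave each library, nor whether the controls carried Ah-cre is stated by the labels. The deposited lists held between 7405 and 32666 sites for E2f3 and between 4119 and 159181 sites for Myc, and the sequencing depth behind them is unknown. With 1 library per group no difference has a replicate check, and intervals are exact binomial (Clopper-Pearson) 95% intervals that cover counting error only. A site list cannot tell binding in fewer cells from weaker binding in each cell, and it measures no expression, so neither the Rb deletion nor the cell types could be checked.

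Cytosolic ribosomal proteins are made in near equal amounts, assembled with ribosomal RNA in the nucleolus and needed in large numbers by growing cells. Many of their genes start within a run of pyrimidines, the 5′ TOP sequence, through which the mTOR pathway controls translation of the mRNAs. Myc is a known activator of ribosome production and binds the E-box together with its partner Max, and E2F factors, which Rb restrains, are best known for genes of DNA replication. Crypts hold the dividing cells of the intestinal lining and villi its differentiated cells.

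The sequences at the sites show what the 2 factors met at these genes. They are on the strand of the gene, cover 29 bases centred on the best-scored site, and come from the mouse assembly NCBIM37 (mm9). A best site is the site with the highest deposited score within 1 kb of any annotated start of the gene. Capitals mark the E2F motif (TTCCCGC or its reverse complement GCGGGAA) at the E2f3 sites of the first 7 genes, which lay at the same base in every E2f3 library that had a site there. At Rps27l only the inner letters GCGGG were present.
Rps20 (chr4:3762866-3762894, minus strand): cgtcctcgcctTTCCCGCcaactaggcgg
Rpl3 (chr15:79913898-79913926, minus strand): aatcctagtggGCGGGAAaaatgtgtgta
Rpl39 (chrX:34625471-34625499, minus strand): atgtaggccttTTCCCGCcctcctcagag
Rpl35a (chr16:33056248-33056276, plus strand): cccagctggagGCGGGAAccaaactaatc
Rps19 (chr7:25669359-25669387, plus strand): ccgcctccttgTTCCCGCcagacacacaa
Rps16 (chr7:29135630-29135658, plus strand): gcctgaaggcgTTCCCGCcgcaattcaca
Rps3a (chr3:85946624-85946652, minus strand): gtcgcagcacgGCGGGAAacgagccgcca
Rps27l (chr9:66793808-66793836, plus strand): cggcggtcaggGCGGGagccgtaccactg

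The next 3 are members whose best Myc site in Rb-deficient crypt had an E-box (CACGTG, in capitals) within 50 bp. In each the site fell on the E-box, and whether the calling contributed to this was not tested.
Rpl12 (chr2:32817415-32817443, plus strand): ggccttggctgcCACGTGtgtaagagggg
Rpl30 (chr15:34373557-34373585, minus strand): ctcccctcccacCACGTGggtttggaact
Rpl24 (chr16:55973672-55973700, plus strand): aaccgctcaaaCACGTGgctttacagaga

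The last 4 are Myc sites of Rb-deficient crypt without an E-box within 50 bp, and the capital marks only the base of the site. The first 3 were at the members with the highest scores among those without an E-box, and Rpl36al had sites of both antibodies at this place. E-box here means CACGTG only. The Rpl23a stretch holds CGCGTG and, from the base of the site, CGCATG. These are the reverse complements of CACGCG and CATGCG, which are counted as other E-box forms further below.
Rpl32 (chr6:115758580-115758608, minus strand): gcgcgcgggcctggCcactggcgctgctc
Rpl10a (chr17:28465621-28465649, plus strand): gccccgcggcccgtCtcggaggctctccc
Rpl23a (chr11:77996848-77996876, minus strand): cgcgtgggccaagcCgcatgggctggttc
Rpl36al (chr12:70284627-70284655, minus strand): cgttgtaagccattCgtagctagaaaacg

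E2f3 was listed at a minority of ribosomal protein genes, more of them in the Rb-deficient than in the control library of each cell type, and the standard genes held nearly all of these sites. In crypt, 28 members (20.3%) had an E2f3 promoter site in the Rb-deficient library and 22 (15.9%) in the control library. The shares over all protein-coding genes were 20.2% and 14.6%, so the whole list stood near the background. In villus, 20 members (14.5%) had a site in the Rb-deficient library and 7 (5.07%) in the control library, beside 12.4% and 4.47% of all genes. Of the 54 genes with -ps names, 1 had an E2f3 site in Rb-deficient crypt (Rpl21-ps3, 619 bp downstream of its start) and none in the other E2f3 libraries.

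Among the 76 standard genes the E2f3 shares lay above those of all genes in each library. They were 32.9% (interval 22.5% to 44.6%) in Rb-deficient crypt, 26.3% (16.9% to 37.7%) in control crypt, 23.7% (14.7% to 34.8%) in Rb-deficient villus and 7.89% (2.95% to 16.4%) in control villus. The interval stood clear of the all-gene share in the first 3 libraries and included it in control villus. With each list reduced to its 4119 highest-scored sites, the shares were 10.5% (4.66% to 19.7%), 6.58% (2.17% to 14.7%), 11.8% (5.56% to 21.3%) and 5.26% (1.45% to 12.9%) in that order, beside 5.02%, 3.23%, 4.62% and 2.77% of all genes. At that length the interval was clear of the all-gene share in Rb-deficient villus and included it in both crypt libraries and in control villus. In Rb-deficient crypt 14 of 42 large-subunit genes and 10 of 31 small-subunit genes were bound, and in control villus 5 and 1. The subunits could not be told apart at these numbers.

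**Figure D1:**
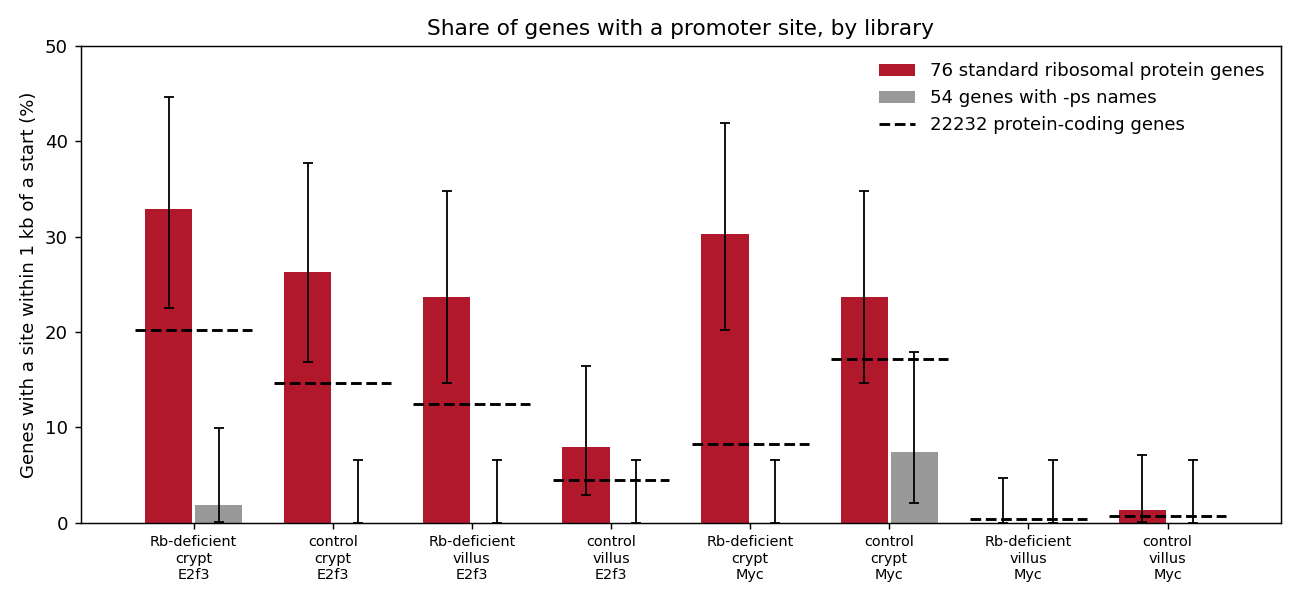
Share of genes, in percent, with a site within 1 kb of a start in each of the 8 libraries, for the 76 standard ribosomal protein genes and the 54 genes with -ps names. Error bars are exact 95% binomial intervals and dashed lines give the share of all 22232 protein-coding genes. The standard genes stand furthest above the line for Myc in Rb-deficient crypt, at 30.3% against 8.28%.

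Members at which E2f3 was listed in all 4 libraries were Rps20, Rpl3, Rpl39, Rpl35a and Rpl36al. These 5 were 3.62% of members, close to the 3.37% of all genes (750) listed in all 4. At Rps20, a protein of the head of the small subunit, the site scored 237.51 in Rb-deficient crypt, 196.37 in control crypt, 101.86 in Rb-deficient villus and 68.47 in control villus. At Rpl3, a large-subunit protein close to the peptidyl transferase centre, it scored 296.13, 173.67, 91.95 and 15.07 in the same order of libraries. The scores have no stated scale between lists, so only ranks within a list can be read. Rps20 stood at or above percentile 94 of bound genes in each list, while Rpl3 stood at percentile 97.8 in Rb-deficient crypt and 64.4 in control villus.

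Rpl39, a small protein that lines the exit tunnel of the large subunit, scored 72.28 in Rb-deficient crypt, 54.71 in control crypt, 13.64 in Rb-deficient villus and 11.12 in control villus. Rpl35a, a large-subunit protein, scored 68.05, 69.19, 31.57 and 17.56 in that order, but its site lay 277 bp upstream of its own start and 14 bp from the start of the neighbouring gene Iqcg. Rpl36al, a paralog of Rpl36a, scored 31.33, 29.52, 15.30 and 20.03. The sites of Rps20, Rpl3, Rpl39 and Rpl35a each fell on 1 base in all 4 libraries, with the E2F motif printed above, whereas those of Rpl36al spread over 18 bp and had no such motif within 50 bp.

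The same base recurred at other members as well. Of 22 members with an E2f3 site in at least 2 libraries, 11 had it at exactly the same base in each of them, and 9 of these 11 had the E2F motif within 50 bp. Over all genes, between 75.7% and 88.1% of best sites with that motif lay on its centre in the E2f3 lists. Whether the calling contributed to these shared bases was not tested. Between the 2 crypt libraries 12 of 16 common members (75.0%) had best sites within 10 bp of each other, beside 70.6% of all genes bound in both. Rps19, the gene most often mutated in human Diamond-Blackfan anaemia, scored 63.00 in Rb-deficient crypt, 35.42 in control crypt and 20.88 in Rb-deficient villus. Rps16 scored 33.75, 27.65 and 7.05 in these libraries, Rps3a scored 37.01, 38.82 and 5.90, and Rps27l, a paralog of Rps27 that p53 induces, scored 16.74, 19.22 and 12.40. None of these genes had a site in control villus.

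All 7 members bound in control villus were also bound in Rb-deficient villus, and 13 were bound in Rb-deficient villus only. The 13 were 65% of the members bound in either library, close to the 66% over all genes. The 13 included Rpl4, Rpl7, Rpl7a, Rpl11, Rpl23, Rps3, Rps3a, Rps12, Rps16, Rps19 and Rps27l. Rpl11 and Rpl23 belong to the ribosomal proteins that bind Mdm2 when ribosome assembly fails, and Rps3 lines the mRNA entry channel. Scores of the named genes in Rb-deficient villus ran from 3.17 at Rps3 to 20.88 at Rps19. Rpl4, whose loops reach the exit tunnel, scored 25.26 in Rb-deficient crypt and 18.50 in Rb-deficient villus, 13 bp from the start of the neighbouring gene Zwilch in Rb-deficient crypt. Most had a site in crypt, as had the 1928 genes of any kind bound in Rb-deficient villus only. Of the members 12 (92.3%) had one in Rb-deficient crypt, beside 81.9% of all such genes, and 10 (76.9%, 46.2% to 95%) in control crypt, beside 57.6%. The 7 bound in both were Rpl3, Rpl10, Rpl14, Rpl35a, Rpl36al, Rpl39 and Rps20. Rpl10, which joins the large subunit last, scored 13.87 in Rb-deficient villus and 5.13 in control villus, and Rpl14 scored 2.21 and 6.66.

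In crypt the 2 genotypes had 16 members in common, 12 were bound in the Rb-deficient library only and 6 in the control library only. Of the members bound in either, 35.3% were thus in the Rb-deficient library only and 17.6% in the control library only, beside 36.1% and 11.4% over all genes. The 12 included Rpl4, Rpl14, Rpl17, Rpl18, Rpl23, Rpl38, Rplp0, Rps12, Rps18 and Rpl21-ps3, with scores between 2.05 at Rps18 and 36.18 at Rpl23. The 6 included Rpl10, Rpl13a, Rps7 and Rps21, with scores between 2.45 at Rpl13a and 24.86 at Rpl10. Of the 12, Rplp0 was among those with a Myc site in Rb-deficient crypt as well. Between cell types, 18 members were bound in both Rb-deficient libraries, 10 in Rb-deficient crypt only and 2 in Rb-deficient villus only. Among control libraries 6 were bound in both, 16 in crypt only and 1, Rpl14, in villus only. Crypt-only members made up 33.3% of those bound in either Rb-deficient library, beside 43.3% over all genes, and 69.6% of those bound in either control library, beside 70.2%.

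**Figure D2:**
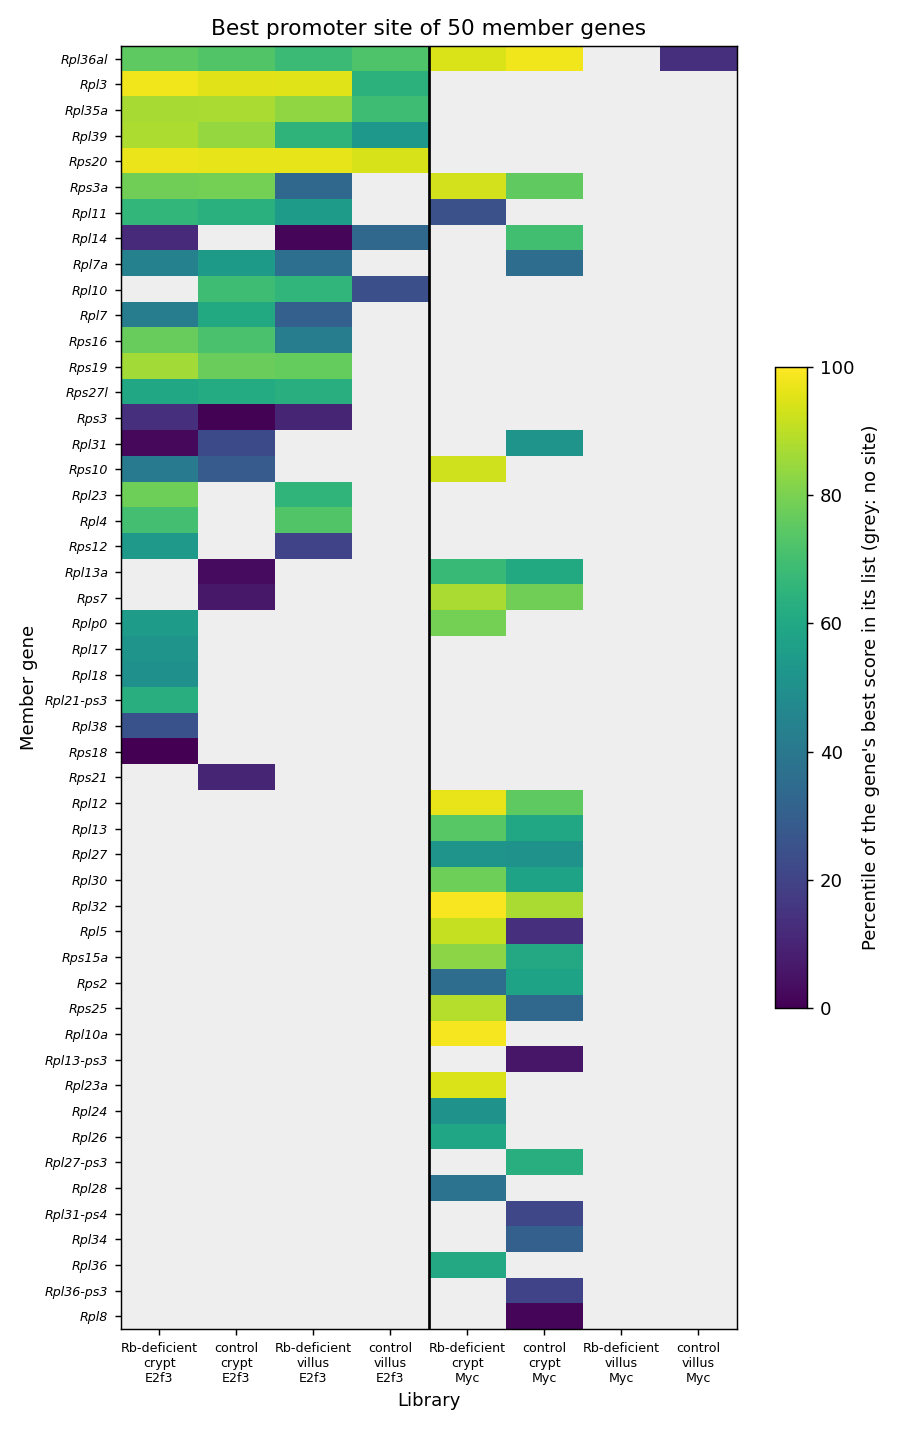
Heat map of 50 members with a promoter site in any library, 1 line per gene and 1 column per library, coloured by the percentile of the gene's best score among all bound genes of that list, with grey for no site. Rps20 is bright in all 4 E2f3 columns, the Rb-deficient villus Myc column is empty, and 10 genes have sites on both sides of the black line.

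Myc was listed at 24 members (17.4%) in Rb-deficient crypt and at 23 (16.7%) in control crypt, against backgrounds of 8.28% and 17.2%. It was listed at 0 members in Rb-deficient villus and at 2 (1.45%) in control villus, beside 0.423% and 0.738% of all genes. The exact upper bound for 0 of 138 is 2.64%, so absence in Rb-deficient villus was not shown. The standard genes had 23 bound in Rb-deficient crypt, 30.3% (20.2% to 41.9%), and 18 in control crypt, 23.7% (14.7% to 34.8%). With the limit of 1 kb the interval stood clear of the all-gene share in Rb-deficient crypt and included it in control crypt. Within 500 bp it was clear in control crypt too, at 18.4% (10.5% to 29.0%) beside 9.29%. With each list reduced to its 4119 highest-scored sites, 10.5% (4.66% to 19.7%) of standard genes were bound in Rb-deficient crypt, beside 1.01% of all genes, and 1.32% were bound in control crypt, beside 0.531%.

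The control crypt Myc list was the longest of the 8, and its sites rarely fell on an E-box. Of best sites of all genes with an E-box within 50 bp, 95.3% lay on the centre of the E-box in Rb-deficient crypt and 4.97% in control crypt. The 4 members with -ps names bound by Myc (Rpl13-ps3, Rpl27-ps3, Rpl31-ps4 and Rpl36-ps3) were all in control crypt. They were 7.41% (2.06% to 17.9%) of the 54, beside 17.2% of all genes in that library. Of the 4583 genes of any kind with a Myc site, 2724 had one in control crypt alone.

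The members with the highest Myc scores in Rb-deficient crypt were large-subunit genes. Rpl32 scored 113.84 in Rb-deficient crypt and 63.67 in control crypt, with sites 2 bp apart. Rpl10a scored 98.90 and Rpl23a, which sits at the exit of the nascent chain, 46.15 in Rb-deficient crypt, and neither had a site in control crypt. Rpl12, a protein of the stalk base, scored 62.04 in Rb-deficient crypt and 33.16 in control crypt, although its site lay nearer to the start of Lrsam1 (295 bp) than to its own (350 bp). Rpl36al scored 44.72 in Rb-deficient crypt, 231.68 in control crypt and 3.17 in control villus. The Rb-deficient crypt scores of the members stood high in their list, with a median percentile of 78.7 and 20 of 24 (83.3%) in the upper part above the median of all bound genes. In control crypt the median percentile was 58.0.

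The highest-scored members of the control crypt Myc list included Rpl36al, Rpl32, Rps7 and Rps3a. Rps7 scored 29.29 in Rb-deficient crypt and 38 in control crypt, and Rps3a 39.37 and 33.45. Rpl5, which carries the 5S RNA into the ribosome with Rpl11, scored 35.84 and 4.28, and Rps25 31.93 and 9. These genes had Myc sites in both genotypes, at positions that need not match: the sites of Rpl5 lay 671 bp apart.

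Of the members bound by Myc in crypt, 14 were common to the 2 genotypes, 10 were in the Rb-deficient library only and 9 in the control library only. Over all genes 1093 were common, 748 were in the Rb-deficient library only and 2736 in the control library only. The 10 included Rpl10a, Rpl11, Rpl23a, Rpl24, Rpl26, Rpl28, Rpl36, Rplp0 and Rps10. Rplp0, the base of the acidic stalk, scored 20.64 and Rps10, a small-subunit protein mutated in some human Diamond-Blackfan anaemia, 39.22. The 9 were Rpl7a, Rpl8, Rpl14, Rpl31, Rpl34 and the 4 genes with -ps names. Their scores ran from 2.31 at Rpl8 to 26.56 at Rpl14. Best Myc sites of the 14 common members were within 10 bp of each other at 6 (42.9%) and within 50 bp at 8 (57.1%), beside 31.8% and 76.8% over all genes, and at 0 of the 14 did the sites of all Myc libraries fall on the same base.

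The median positions of the 2 factors at members lay on different sides of the start in crypt. E2f3 sites had a median position of 55.5 bp upstream of the nearest start in Rb-deficient crypt and 62 bp upstream in control crypt (medians of -55.5 and -62), close to the -55 and -50 of all bound genes. Myc sites had medians of 105.5 bp downstream in Rb-deficient crypt and 135 bp downstream in control crypt, where those of all bound genes were at -53 and -62. In Rb-deficient crypt 22 of 28 members (78.6%, interval 59.0% to 91.7%) had the E2f3 site upstream, beside 66.7% of all bound genes. For Myc 9 of 24 members (37.5%, 18.8% to 59.4%) had it upstream, beside 57.5% of all bound genes. In control crypt the upstream shares were 77.3% (54.6% to 92.2%) for E2f3, beside 62.6%, and 39.1% (19.7% to 61.5%) for Myc, beside 53.9%. Each of these intervals included the share of all bound genes.

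**Figure D3:**
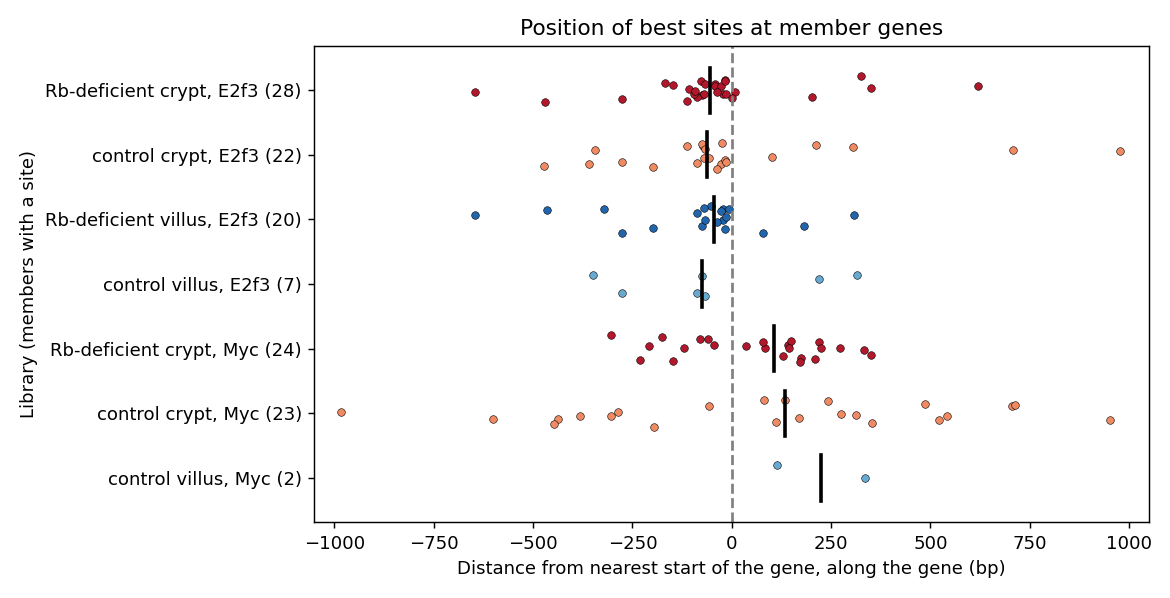
Distance in bp from the nearest start of the gene, along the gene, of the best site of each member in the 7 libraries with any, 1 point per member with the median as a vertical bar and the start as a dashed line. E2f3 points gather just upstream of the start, with medians between -76 and -44.5, and the crypt Myc points lie mostly downstream, with medians of 105.5 and 135.

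Most Myc sites lay in the leader or the introns of the genes, including some that were upstream of the nearest of several starts. In Rb-deficient crypt 22 of 24 best Myc sites (91.7%, 73.0% to 99%) lay in the 5′ UTR or an intron, 14 of them in an intron, beside 46.2% over all bound genes. The 22 were all 15 sites downstream of the nearest start and 7 of the 9 upstream of it. In control crypt the share was 16 of 23 (69.6%, 47.1% to 86.8%), beside 52.8%. Fewer E2f3 sites lay there: 7 of 28 (25.0%, 10.7% to 44.9%) in Rb-deficient crypt, beside 40.2%, and 31.8% (13.9% to 54.9%) in control crypt, beside 44.1%. Both intervals included the share of all bound genes. In Rb-deficient crypt 21 of 28 (75.0%, 55.1% to 89.3%) lay outside the annotated transcripts of the gene itself, beside 56.4%. No best site of a member lay in coding sequence. Over all bound genes in Rb-deficient crypt, 2.43% of best E2f3 sites and 5.76% of best Myc sites did. Ribosomal protein genes have many processed copies in the genome, which hold exons but not introns or upstream sequence. How reads with several matches were handled is not given in the sources used here, and any effect on these shares was not tested.

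The E2F motif was searched on both strands within 50 bp of each site with the spelling TTCCCGC, the spelling TTCGCGC, the spelling TTGCCGC or the spelling TTGGCGC. It was present at 14 of 28 members' best E2f3 sites (50%, 30.6% to 69.4%) in Rb-deficient crypt and 13 of 22 (59.1%, 36.4% to 79.3%) in control crypt. Over all bound genes the shares were 34.7% and 40.7%. In villus it was present at 10 of 20 (50%) in the Rb-deficient library and 5 of 7 (71.4%) in the control library, beside 38.8% and 61.5%. All 14 in Rb-deficient crypt were at standard genes. The inner letters CCCGC, searched after the first results were seen, lay within 5 bp of 23 of 28 best sites in Rb-deficient crypt (82.1%), beside 77.4% over all bound genes. In that library 75.9% of all best sites with the E2F motif lay on its centre. Whether the calling contributed to this was not tested.

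At Myc sites of ribosomal protein genes the E-box was less frequent in Rb-deficient crypt than over all bound genes, with an interval that included the all-gene share. It lay within 50 bp at 4 of 24 members (16.7%, 4.74% to 37.4%), beside 31.4% of all bound genes, and in control crypt at 2 of 23 (8.70%, 1.07% to 28.0%), beside 4.20%. Rpl12 and Rpl30 had it in both libraries. Rpl30 scored 19.95 in Rb-deficient crypt and 18.40 in control crypt. Rpl24 scored 9.63 in Rb-deficient crypt, with no Myc promoter site in control crypt. Another E-box form (the letters CACGCG, the letters CATGCG, the letters CACGAG or the letters CATGTG, added after the first results were seen) lay within 50 bp at 9 of 24 members (37.5%) in Rb-deficient crypt, beside 29.7%. The YY1 letters ATGGCGG lay at 5 of 24 (20.8%, 7.13% to 42.2%), beside 2.61%, namely at Rpl10a, Rpl13a, Rpl28, Rpl36 and Rps25.

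**Figure D4:**
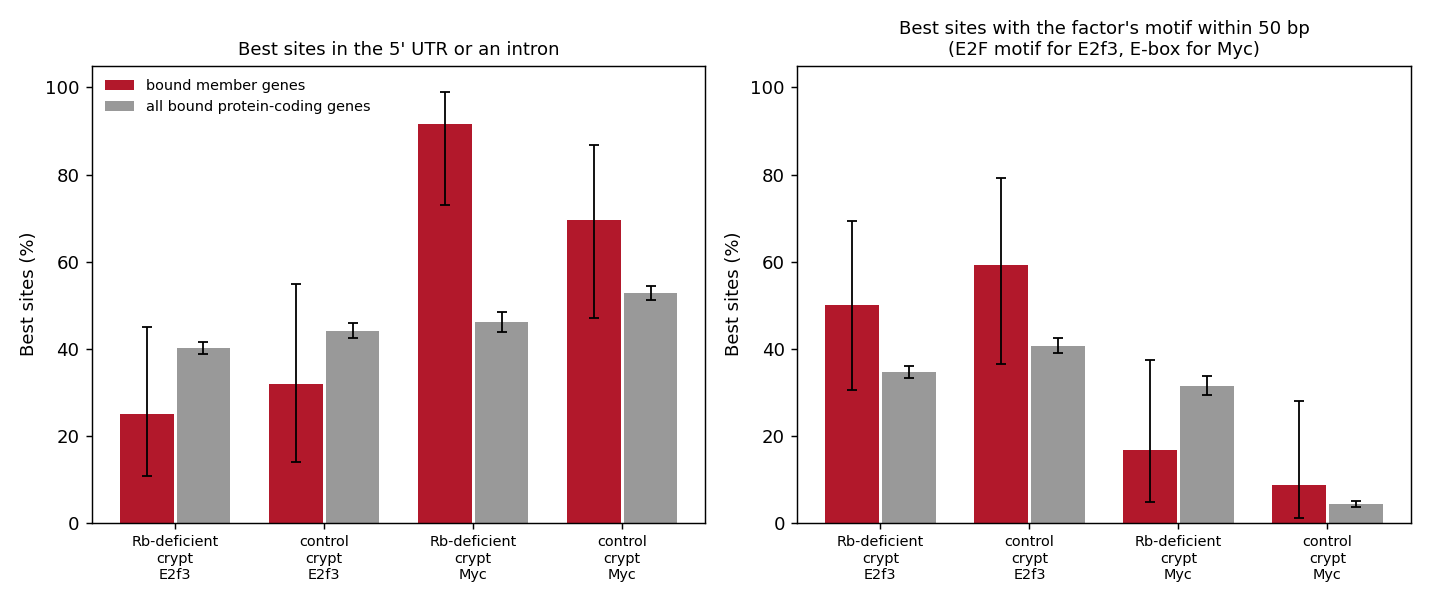
Left, share of best sites in the 5′ UTR or an intron; right, share of best sites with the factor's motif within 50 bp, both in percent, in the 4 crypt libraries, for bound members and for all bound protein-coding genes, with exact 95% binomial intervals. The bar for members' Myc sites in Rb-deficient crypt stands at 91.7% on the left and at 16.7% on the right, against 46.2% and 31.4% for all bound genes.

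The promoters themselves, from 250 bases before to 50 after any annotated start, were rich in several motifs among standard genes. CCGGAAG, bound by ETS factors, was in 39.5% of them (28.4% to 51.4%) and 13.8% of all genes, and ATGGCGG in 27.6% (18% to 39.1%) and 7.75%. The E2F motif was in 27.6% and 15.9%, the E-box in 18.4% and 10.7%, the GC box GGGCGG, which can share bases with the E2F motif, in 63.2% and 51.0%, and TATAAA in 14.5% and 18.8%. A start on C with at least 4 pyrimidines after it, the 5′ TOP letters, was annotated for 21.1% (12.5% to 31.9%) and 4.05%. Motifs were counted over any annotated start, and standard genes had more starts, with a median of 2 (mean 2.17) against 1 (mean 2.07) for all genes. Its part in these shares was not tested. Of the 54 genes with -ps names, 1.85% had the E2F motif and 3.70% the E-box.

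Standard genes with the E2F motif in the promoter had an E2f3 site more often than those without, and so did genes of any kind. In Rb-deficient crypt 14 of 21 standard genes with the motif in the promoter had an E2f3 site (66.7%, 43.0% to 85.4%), against 11 of 55 without it (20%, 10.4% to 33.0%). Over all genes the shares were 44.3% and 15.7%. In control crypt the shares of the standard genes were 47.6% with the motif and 18.2% without, in Rb-deficient villus 42.9% and 16.4%, and in control villus 19.0% and 3.64%. Over all genes they were 33.9% and 10.9%, 30.5% and 9.01%, and 13.5% and 2.76% in that order. The intervals of standard genes with and without the motif were apart in Rb-deficient crypt and overlapped in the other libraries. For Myc and the E-box the split was smaller, with 5 of 14 (35.7%) bound among standard genes with an E-box and 18 of 62 (29.0%) among those without in Rb-deficient crypt, beside 18.9% and 7.01% over all genes. A total of 29 standard genes host 47 annotated snoRNAs. E2f3 was listed at 44.8% of hosts and 25.5% of the 47 other standard genes in Rb-deficient crypt, 34.5% and 21.3% in control crypt, 37.9% (20.7% to 57.7%) and 14.9% (6.20% to 28.3%) in Rb-deficient villus, and 13.8% and 4.26% in control villus. The intervals of hosts and other genes overlapped in each of the 4 libraries, and the split was not made over all genes.

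Over the 4 libraries of each factor, 34 members (24.6%) had an E2f3 site and 33 (23.9%) a Myc site, beside 24.1% and 20.6% of all genes. Both factors were listed at 12 and either at 55. The 12 were 35.3% of the E2f3-bound and 36.4% of the Myc-bound members, beside 39.7% and 46.3% over all genes. In Rb-deficient crypt 5 of the 23 standard genes with a Myc site also had an E2f3 site (21.7%, 7.46% to 43.7%), against 20 of the 53 without a Myc site (37.7%, 24.8% to 52.1%). The intervals overlapped. The shares over all genes were 53.8% and 17.2%, and those over all 138 members, the genes with -ps names included, 25% (9.77% to 46.7%) and 19.3% (12.5% to 27.7%). In control crypt the standard genes had 33.3% and 24.1%, and all genes 32.2% and 10.9%.

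**Figure D5:**
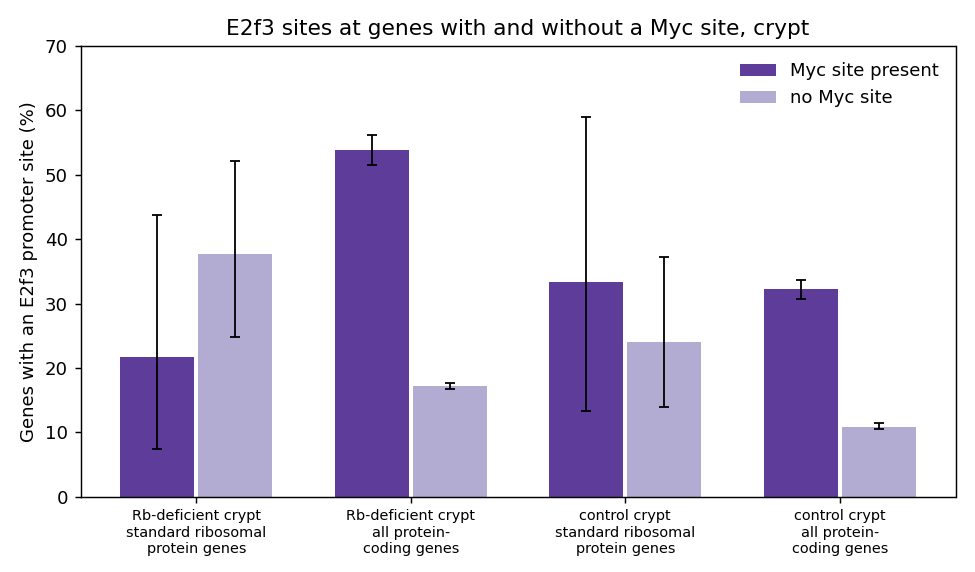
Share of genes, in percent, with an E2f3 promoter site among genes with and without a Myc promoter site in the same crypt cells, for standard ribosomal protein genes and for all protein-coding genes, with exact 95% binomial intervals. In Rb-deficient crypt the standard genes stand at 21.7% with Myc and 37.7% without, while all genes stand at 53.8% and 17.2%.

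Sites of the 2 factors within 250 bp of each other were found at 5 members in Rb-deficient crypt, among them Rpl11, Rpl36al, Rplp0 and Rps10. They made up 17.9% of the E2f3-bound and 20.8% of the Myc-bound members there, beside 16.7% and 40.8% over all genes. At Rps10 the sites were 33 bp apart and scored 9.27 for E2f3 and 39.22 for Myc. Rpl11 scored 21.85 for E2f3 and 5.19 for Myc, and Rplp0 14.07 and 20.64. At Rps3a, outside that distance, they lay 286 bp apart. In control crypt 4 members had close sites, Rpl31, Rpl36al and Rps7 among them. These were 18.2% of the E2f3-bound and 17.4% of the Myc-bound members, beside 27.5% and 23.2% over all genes. In Rb-deficient villus, where no member had a Myc site, 0 had close sites, beside 2.72% of all E2f3-bound genes. In control villus 1 had them, Rpl36al, or 14.3% of the E2f3-bound members, beside 8.95%.

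Rpl36al had sites of both antibodies at one place, in 7 libraries within 29 bp of each other, all but Rb-deficient villus Myc. None of these sites had the E2F motif or an E-box within 50 bp. Without a control antibody among the libraries analysed, whether such sites depend on the antibody was not tested.

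Of the 138 members, 83 had no promoter site in any of the 8 libraries: 49 of the 54 genes with -ps names, 28 of the 76 standard genes, 5 of the 7 paralogs and Rps19bp1. By factor, 75.4% of members had no E2f3 site and 76.1% no Myc site, near the 75.9% and 79.4% of all genes. Of the standard genes alone 59.2% had no E2f3 site and 63.2% no Myc site, below the shares of all genes. Over all genes 5349 had an E2f3 site, 4583 a Myc site and 2123 both, and the share with neither was not computed. The unbound standard genes were Rpl6, Rpl9, Rpl15, Rpl19, Rpl21, Rpl22, Rpl27a, Rpl29, Rpl35, Rpl36a, Rpl37, Rpl37a, Rplp1, Rplp2, Rps4x, Rps4y2, Rps6, Rps9, Rps13, Rps14, Rps15, Rps23, Rps24, Rps26, Rps27, Rps27a, Rps28 and Rps29. They include Rps6, the target of S6 kinases, and both P proteins of the stalk tip. The unbound paralogs were Rpl3l, Rpl7l1, Rpl10l, Rpl22l1 and Rpl39l, while Rpl36al and Rps27l were bound.

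Some calls hang on the limit of 1 kb. Just inside it were, for example, Rpl27-ps3 (Myc in control crypt, 983 bp upstream) and Rps15a (Myc in control crypt, 953 bp downstream). Just outside were, for example, sites at Rpl18 (Myc in control crypt, 1004 bp upstream), Rpl10l (Myc in control crypt, 1057 bp downstream) and Rpl35 (E2f3, 1078 bp downstream in Rb-deficient crypt and 1087 bp in Rb-deficient villus). At Rps19-ps4 all 8 libraries had a site between 1366 and 1400 bp away, with scores from 40.78 up to the cap of the lists. Sites at 5 members were nearer to the start of a neighbouring gene in at least 1 library: Rpl35a (Iqcg), Rpl4 (Zwilch), Rpl7a (Med22), Rpl12 (Lrsam1) and Rpl13a (Flt3l).

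A chosen list of 22 genes outside the name rule held mostly genes of the translation machinery, but also Npm1, Nap1l1 and Hnrnpa1. E2f3 sites were at 14 of the 22 in Rb-deficient crypt (63.6%, 40.7% to 82.8%) and 8 in control crypt (36.4%, 17.2% to 59.3%). In villus they were at 5 in the Rb-deficient library (22.7%, 7.82% to 45.4%) and 2 in the control library (9.09%, 1.12% to 29.2%). The interval was above the all-gene share of 20.2% and 14.6% in the crypt libraries and included the 12.4% and 4.47% of the villus libraries. The 2 in control villus were Npm1 and Hnrnpa1, which also had E2f3 sites in Rb-deficient villus and Myc sites in Rb-deficient crypt. Myc sites were at 7 in Rb-deficient crypt (31.8%, 13.9% to 54.9%) and 3 in control crypt (13.6%, 2.91% to 34.9%). The Myc interval was above the all-gene share of 8.28% in Rb-deficient crypt and included the 17.2% of control crypt. In either villus library Myc was at 0, with an upper bound of 15.4%, beside 0.423% (Rb-deficient) and 0.738% (control) of all genes. Rpsa, a small-subunit protein whose name escapes the rule, had E2f3 sites in Rb-deficient crypt (9.36) and Rb-deficient villus (10.17). It also had a Myc site in Rb-deficient crypt (18.18), and no library of control mice held a site there. Fau, which encodes Rps30 fused to a ubiquitin-like protein, had only an E2f3 site in Rb-deficient crypt (13.21).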

How the data were processed

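The authors deposited a list of binding events for each library. Per the submitters' processing notes, they used MACS2 2.0.10, Bowtie2 2.2.1 and the build mm9. File names describe GEM events lying in MACS2 peaks, with duplicates kept and data merged. The GEM settings, the number of reads and what was joined are not stated. The deposited score, from 2 to a cap of 999, has no stated scale between lists and was ranked within a list only. Deposited positions count from 0, so 1 was added.

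Genes, starts and sequence came from GENCODE M1 and NCBIM37, the assembly behind mm9. A gene was bound when a site lay within 1 kb of any of its starts. Assignment to genes was tested on simulated data and recovered 200 of 200 planted sites. Members and lists were chosen with earlier results of these data known. Named in full were members bound in all E2f3 lists or both villus E2f3 lists, with an E-box or close E2f3 and Myc sites in Rb-deficient crypt, or with the 5 highest scores of a list. Some genes are counted but not reported by name here. No test between groups was made. Alternatives were the window, score minimum, list length, starts, assignment, motif window and standard genes alone. Python 3.11.15, numpy 2.4.6, scipy 1.17.1, pandas 2.3.3, pysam 0.24.0 and matplotlib 3.10.9 were used.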

Additional observations from a re-analysis of the deposited data

Results flagged for a closer look

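The count of members bound by Myc in Rb-deficient minus control libraries was 1 in crypt and -2 in villus. For the standard genes alone it was 5 and -1. Over all genes it was -1988 in crypt and -70 in villus, negative in both. The signs for members differ between the cell types, the difference was not tested, and in villus it rests on 2 genes.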

How the results depend on the processing

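Of 115 recomputed values for 39 results, 80 stayed within the limits of the main value, 34 moved and 1 reversed. The limits were wide for counts. A fall from 28 members bound by E2f3 in Rb-deficient crypt to 19, with scores of at least 10, stayed within them. Counts of 0 for Myc in Rb-deficient villus, which stricter settings could not lower, were also among the 80. Within 5 kb of a start, E2f3 had 47 members bound in Rb-deficient crypt, 39 in control crypt, 37 in Rb-deficient villus and 15 in control villus. Myc had 44, 77, 6 and 10 in that order. The E2f3 shares of members were then 34.1%, 28.3%, 26.8% and 10.9%, beside 29.5%, 25.9%, 17.9% and 7.64% of all genes. For Myc the shares were 31.9%, 55.8%, 4.35% and 7.25%, beside 20.2%, 53.1%, 2.24% and 3.63%. The Myc crypt difference between Rb-deficient and control libraries then reversed to -33, and the villus differences were 22 for E2f3 and -4 for Myc. Over all genes Myc was at 4484 in Rb-deficient crypt and 11795 in control crypt at this distance. The control crypt Myc list was also by far the longest. Within 500 bp the Myc crypt difference was 7, where 1266 genes of any kind were bound in Rb-deficient crypt and 2066 in control crypt. With the 4119 highest-scored sites of each list, E2f3 had 9 members in Rb-deficient crypt, 5 in control crypt and 10 in Rb-deficient villus. These were 6.52%, 3.62% and 7.25% of members, beside 5.02%, 3.23% and 4.62% of all genes. Myc had 9 in Rb-deficient crypt, 2 in control crypt and 1 in control villus. These were 6.52%, 1.45% and 0.725%, beside 1.01%, 0.531% and 0.369%. With each pair of lists at equal length the differences were 11 in crypt and 5 in villus for E2f3, and 21 in crypt and -1 in villus for Myc. With scores of at least 10, E2f3 had 11 members in Rb-deficient villus (7.97%, beside 5.42% of all genes). Myc had 15 in control crypt (10.9%, beside 10.9%) and 0 in control villus (beside 0.261%). The differences were 6 for E2f3 in villus, 3 for Myc in crypt and 0 for Myc in villus. With standard genes alone Myc had 1 member in control villus, and its differences, added after seeing the data, were 5 in crypt and -1 in villus. Within 250 bp the E-box was at 7 members' Myc sites in Rb-deficient crypt and 5 in control crypt. Also added after seeing the data, CCCGC gave 23 E2f3 sites and the other E-box letters 9 Myc sites in Rb-deficient crypt. Without the control crypt Myc library 24 members had a Myc site, against 33 with it. Settings that keep fewer sites or genes lower the counts by construction, and the cause of the Myc reversal was not tested. No paired analysis was possible because each group had 1 library. Depth is unknown, so a member without a site may be unbound or below detection.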
